A study of Mus musculus with 2 samples.

Results

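Genes for small nuclear RNAs (snRNAs) and small nucleolar RNAs (snoRNAs) were examined for accessible chromatin in mouse kidney. All GENCODE M21 genes of these types on the 19 autosomes were taken, each with 500 bp on either side, which gave 2734 loci of the 1383 snRNA and 1507 snoRNA genes annotated on all chromosomes. They comprised 1292 snRNA and 1442 snoRNA loci. Of these, 1179 snRNA and 1223 snoRNA loci lay more than 2 kb from every start site of a protein-coding gene, and 113 and 219 lay closer. The tissue was female kidney of the F1 hybrid strain B6CASTF1/J, aged 36 days, with no treatment, control or second group. DNase-seq, which cuts open chromatin and sequences the cut ends, was done on 2 libraries given as biological replicates. Their donor entry is identical, so the labels do not show more than 1 animal. Because each locus is a copy within 1 genome, loci are not replicates, and the spread is shown by giving each library on its own.

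snRNAs form the cores of the spliceosome. U1, U2, U4, U5 and U6 belong to the major spliceosome, while U11, U12 and U6atac serve the minor one and U7 processes histone messages. Most snRNA genes carry their own compact promoter, made of a proximal sequence element (PSE) close to the start and a distal sequence element further upstream that commonly holds an octamer bound by the factor Oct1. U6 genes, read by RNA polymerase III, add a TATA box between the PSE and the start, while U1, U2, U4 and U5 genes are read by RNA polymerase II. snoRNAs of the C/D class guide methylation of ribosomal RNA and those of the H/ACA class guide its pseudouridylation. Most mammalian snoRNAs are cut from introns of host genes and need no promoter of their own. U3, U8 (Snord118) and U13 (Snord13) are exceptions with snRNA-type promoters. The genome also holds many copies of snRNAs and snoRNAs that lack such promoters.

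Upstream sequences of snRNA loci that hold promoter letters are shown first; 25 of the 42 far snRNA loci with a peak in both libraries hold neither an octamer nor PSE letters. Each is the 280 bases directly before the gene, on the gene's strand and 5′ to 3′, from the GRCm38.p6 sequence, whose coordinates are those of mm10. Capitals mark the letters found by a search, namely the octamer (ATGCAAAT or ATTTGCAT), the PSE letters (ACCNTNA, 75 to 41 bases before the gene) and the TATA letters (TATAAA with at most 1 mismatch, 40 to 15 bases before it). The first 4 precede U6 genes. Gm25064 (chr9:63133003-63133282, plus strand) and the pair Gm23296 (chr12:52604592-52604871, minus strand) and Gm24859 (chr12:52603508-52603787, plus strand) lay beside a peak in both libraries. Gm25127 (chr3:149028652-149028931, plus strand) had none, although its gene is identical in sequence to Rnu6 and to Gm25064. It was chosen as a contrast after its values were seen.
Gm25064: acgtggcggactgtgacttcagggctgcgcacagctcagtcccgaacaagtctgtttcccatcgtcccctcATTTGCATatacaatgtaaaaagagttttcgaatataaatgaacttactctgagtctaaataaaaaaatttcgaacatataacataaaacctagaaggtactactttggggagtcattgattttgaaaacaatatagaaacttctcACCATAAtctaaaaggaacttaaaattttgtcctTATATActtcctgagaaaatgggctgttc
Gm23296: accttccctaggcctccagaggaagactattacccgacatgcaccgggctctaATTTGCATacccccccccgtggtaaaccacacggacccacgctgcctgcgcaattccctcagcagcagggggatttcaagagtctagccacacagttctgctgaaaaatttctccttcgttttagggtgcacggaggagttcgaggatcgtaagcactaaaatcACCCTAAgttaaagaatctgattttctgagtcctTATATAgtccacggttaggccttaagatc
Gm24859: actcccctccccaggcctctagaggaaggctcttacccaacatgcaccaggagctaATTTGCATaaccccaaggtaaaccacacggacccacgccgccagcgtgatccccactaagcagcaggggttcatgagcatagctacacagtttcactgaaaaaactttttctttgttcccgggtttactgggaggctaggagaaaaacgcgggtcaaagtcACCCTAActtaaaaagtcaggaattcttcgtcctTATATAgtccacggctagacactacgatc
Gm25127: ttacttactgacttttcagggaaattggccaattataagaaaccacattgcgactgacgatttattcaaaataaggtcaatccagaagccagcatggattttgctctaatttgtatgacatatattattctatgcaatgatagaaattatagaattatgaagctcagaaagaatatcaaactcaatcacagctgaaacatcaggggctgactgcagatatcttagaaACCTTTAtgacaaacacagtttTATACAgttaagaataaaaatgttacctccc
The letters of the distal octamer are present in the first 3 and missing in the last. The other 4 come from the most accessible U6atac gene, Gm25541 (chr2:27539931-27540210, minus strand), a U4 gene, Gm24407 (chr5:115489974-115490253, plus strand), the U11 gene Rnu11 (chr4:132270214-132270493, minus strand) and the U2 gene Rnu2-10 (chr11:101657958-101658237, plus strand).
Gm25541: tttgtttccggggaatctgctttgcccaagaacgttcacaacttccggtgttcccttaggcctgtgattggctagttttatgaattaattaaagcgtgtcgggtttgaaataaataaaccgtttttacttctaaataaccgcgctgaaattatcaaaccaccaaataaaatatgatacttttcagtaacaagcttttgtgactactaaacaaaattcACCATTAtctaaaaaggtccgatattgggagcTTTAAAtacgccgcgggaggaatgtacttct
Gm24407: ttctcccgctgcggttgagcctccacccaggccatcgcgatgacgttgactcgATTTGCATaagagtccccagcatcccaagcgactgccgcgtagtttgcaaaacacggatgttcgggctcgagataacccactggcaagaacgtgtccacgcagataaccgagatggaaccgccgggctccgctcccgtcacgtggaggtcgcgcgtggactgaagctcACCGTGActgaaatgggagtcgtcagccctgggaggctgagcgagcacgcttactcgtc
Rnu11: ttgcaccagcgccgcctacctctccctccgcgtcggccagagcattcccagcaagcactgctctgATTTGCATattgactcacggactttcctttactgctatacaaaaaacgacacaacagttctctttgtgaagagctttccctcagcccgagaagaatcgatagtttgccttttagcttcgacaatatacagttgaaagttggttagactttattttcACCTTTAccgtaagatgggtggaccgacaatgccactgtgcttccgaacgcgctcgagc
Rnu2-10: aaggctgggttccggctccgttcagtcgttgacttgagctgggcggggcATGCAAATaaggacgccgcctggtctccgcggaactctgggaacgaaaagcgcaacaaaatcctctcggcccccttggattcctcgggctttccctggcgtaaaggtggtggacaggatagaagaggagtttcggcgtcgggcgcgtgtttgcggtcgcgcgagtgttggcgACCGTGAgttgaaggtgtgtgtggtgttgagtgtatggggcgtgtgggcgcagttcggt
All 4 hold the PSE letters, 3 hold the octamer, and Gm25541 holds TATA letters but no octamer.

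The peak set of replicate 1 held 124504 peaks and that of replicate 2 held 68056, with 375848 and 223827 footprints, so replicate 2 limits every count of loci called in both libraries. How many reads each library had, and how reads that map to several places were treated, is not stated. The kidney label was checked at promoters of 8 kidney and endothelial marker genes, namely Slc34a1, Lrp2, Slc5a2, Umod, Slc12a1, Slc12a3, Aqp2 and Pecam1, which had a peak in both libraries, while Alb of hepatocytes and Neurod6 of neurons had none. Peak heights are the authors' values on an unstated scale and rank peaks within a library. Their median over all peaks was 1.33 in replicate 1 and 1.46 in replicate 2.

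Few small RNA loci were accessible. More than 2 kb from protein-coding starts, 67 snRNA loci (5.68%) had a peak in replicate 1, 42 (3.56%) in replicate 2 and the same 42 in both. Among snoRNA loci at that distance, 82 (6.7%) had a peak in replicate 1, 45 (3.68%) in replicate 2 and 44 (3.6%) in both. Over all consecutive 1107 bp windows of the autosomes at that distance, the length of the median member window, 4.5% had a peak in replicate 1, 2.26% in replicate 2 and 2.17% in both. Both RNA types thus lay above that background in each library, and below the 4.84% of microRNA genes that had a peak in both. The strongest peaks of the 44 far snoRNA loci are 34 distinct peaks in each library. With 1 of each set of overlapping windows, 3.41% of far snRNA and 2.79% of far snoRNA loci had a peak in both, the latter nearer the background. Within 2 kb of protein-coding starts, 17 snRNA loci (15%) and 26 snoRNA loci (11.9%) had a peak in both libraries. There the background was 14.8% of consecutive windows and 32.9% of microRNA genes, so that closer loci were about as often accessible as any window there, or less.

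**Figure D1:**
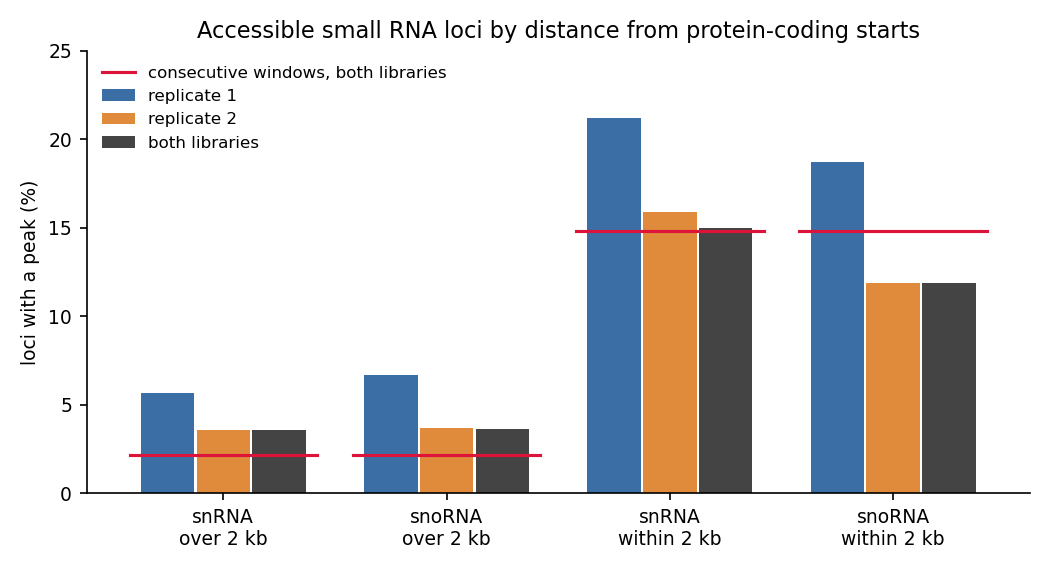
Percentage of snRNA and snoRNA loci with a peak (y axis) in replicate 1, replicate 2 and both libraries, for loci more than 2 kb from protein-coding starts and within 2 kb. Red lines give consecutive windows with a peak in both libraries (2.17% and 14.8%), and apply to the bars for both libraries; those bars lie above the line for far loci (3.56% and 3.6%) and below it for near snoRNA loci (11.9%).

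Footprints, short stretches protected from cutting, followed the peaks. A footprint lay in the window in both libraries at 44 far snRNA loci (3.73%) and 47 far snoRNA loci (3.84%), against 2.36% of consecutive windows. Near protein-coding starts the counts were 17 snRNA (15%) and 22 snoRNA loci (10%), against 15% of windows. Of the 129 members with a peak in both libraries, 10 lacked a footprint in both, and 11 members had a footprint in both without a peak in both. A peak in replicate 1 alone was present at 85 members and in replicate 2 alone at 2.

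The snRNA families differed widely in the share of accessible copies. More than 2 kb from protein-coding starts, a peak in both libraries was present at 9 of 26 U2 loci (34.6%), 4 of 9 U5 loci (44.4%), 2 of 10 U4 loci and 1 of 2 U11 loci. In the large families it was rare, with 15 of 771 U6 loci (1.95%) and 6 of 144 U1 loci (4.17%). Beside the background of 2.17%, the U6 share was at the level of any window. None of 51 far U7 loci had a peak in both, whereas Rnu7 itself, which lies near the start of Grcc10, had one of 5.72 and 4.06. The middle of that peak lay 176 and 156 bp after the 5′ end of Rnu7, and to which gene it belongs was not tested. Of 150 loci that could be placed in no family, 3 had a peak in both.

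**Figure D2:**
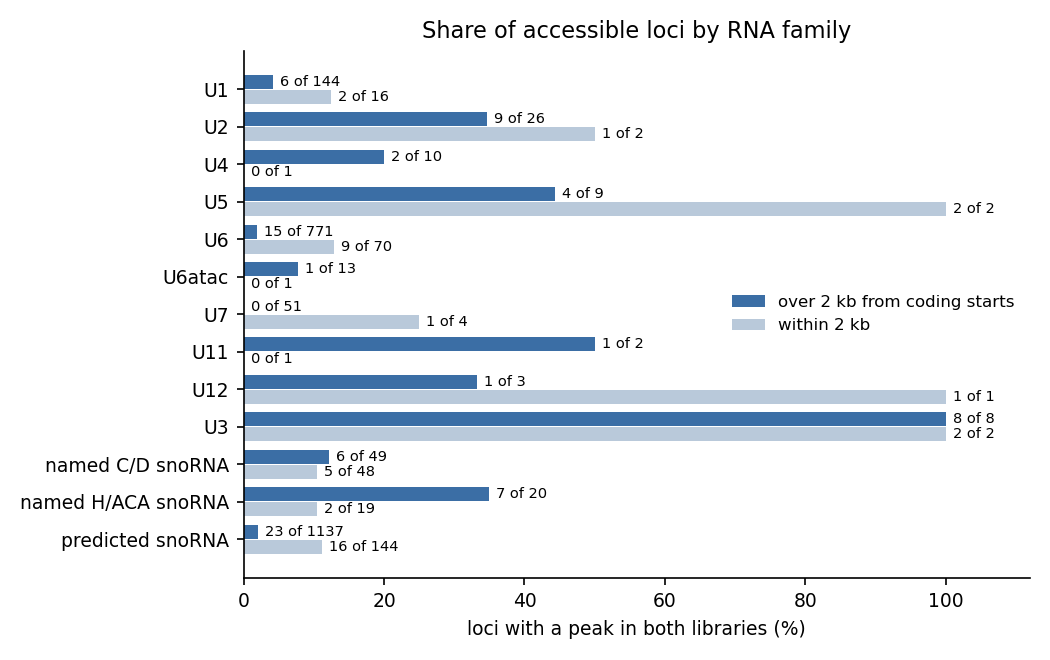
Percentage of loci with a peak in both libraries (x axis) for each RNA family (y axis), more than 2 kb from protein-coding starts and within 2 kb, with counts beside the bars. U2, U5 and U3 loci stand far above the 15 of 771 far U6 loci and the 23 of 1137 far predicted snoRNA loci.

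The highest peak of any far locus stood at a gene of the minor spliceosome. Gm25541, a U6atac gene at chr2:27539805-27539930, had a height of 25.5 in replicate 1 and 23.7 in replicate 2, which placed it at percentiles 99.6 and 99.5 of all peaks of each library. It was the only 1 of 13 far U6atac loci with a peak in either library. The U11 gene Rnu11 had heights of 5.19 and 4.19. Rnu12, the U12 gene, lies near the start of Poldip3 and had 18.2 and 11.9, with 9 and 7 footprints. A far U12 copy, Gm23502, was much lower, at 4.35 and 1.32. Thus U11, U12 and U6atac each had at least 1 gene with a peak well above the median of both libraries.

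Among U6 loci, the tall peaks belonged to few copies. Gm25064 (chr9:63133283-63133389) had 10.9 and 8.01, with 8 footprints in each library. Gm23296 and Gm24859, which lie within 1 kb of each other on chromosome 12 on opposite strands, with their 3′ ends facing, had 11.2 and 7.73, and 6.25 and 3.89. Gm23387 had 7.93 and 7.55, Gm22756 had 7.09 and 6.12, and Gm24204, inside the ribosomal protein gene Rpl3, had 10.4 and 4.73. The 300 bp before these 3 genes hold neither an octamer nor PSE letters. Exact copies of Rnu6 number 40 with Rnu6 itself, and 2 of them, Gm25064 and Gm25709 (2.38 and 1.21), had a peak. Rnu6 had none, and 12.8% of the 36-mers of its window occur once in the genome, so reads there are mostly not unique.

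U2 and U5 genes were accessible in clusters. The U2 genes Gm25360, Gm23472, Gm24497 and Gm25939 follow each other on chromosome 1 between 72226240 and 72255198. Their heights in replicate 1 were 3.42, 2.25, 12.6 and 4.98, and in replicate 2 they were 1.53, 1.84, 6.49 and 3.17, so Gm24497 was the highest of the cluster in both. Starts of the noncoding gene D230017M19Rik lie 192 bp from Gm24497 and 481 bp from Gm23472, whose strongest peak is at -465. To which gene these peaks belong was not tested. In the 300 bp upstream, 99.2% of 36-mers are single-copy at Gm24497, against 29.8% at Gm25360, 29.1% at Gm23472 and 74.3% at Gm25939, and the part of this in the order of heights was not tested. On chromosome 11, Gm26316 (4.73 and 2.17), Gm24950 (3.14 and 1.92) and Rnu2-10 (3.41 and 2.65) had peaks in both libraries, and Gm23971 in replicate 1 alone (1.63). These copies resemble each other closely, and 27.7% of the 36-mers around Gm24950 and 32.8% around Gm23971 are single-copy, so their values are uncertain. The U5 genes Gm25099 (6.22 and 3.2), Gm23143 (2.08 and 1.16) and Gm23287 (5.64 and 2.19) on chromosome 4, and Rnu5g on chromosome 9 (6.16 and 2.83) made up the far accessible U5 genes. The U4 genes Gm24407 and Gm24265 stand side by side on chromosome 5 and share 1 peak of 5.24 and 4.82, which lies before Gm24407 and after Gm24265.

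U1 genes showed the limit set by identical copies. Rnu1a1 (chr11:87422867-87423030) had 5.62 and 4.89, and its neighbour Gm22068 had 6.12 and 5.46. These are heights of different peaks, since the strongest lay upstream in replicate 1, at -246 and -255 from the start of the gene, and inside the gene in replicate 2, at 144 and 135. Rnu1b1, Rnu1b2 and Rnu1b6, the named U1b genes of chromosome 3, had no peak and no interval at a false discovery rate below 0.05 in either library, but 4.96%, 4.78% and 1.68% of their 36-mers are single-copy. For these 3 genes an absent peak therefore cannot be told apart from absent unique reads. Of the far loci in which under 25% of 36-mers are single-copy, 2 of 200 had a peak in both libraries, against 52 of 1470 (3.54%) where at least 90% are. Both of those 2, Gm23804 and Gm24305, are U1 copies whose peak lies within the gene, at 1.46 and 1.72, and 1.07 and 0.856.

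**Figure D3:**
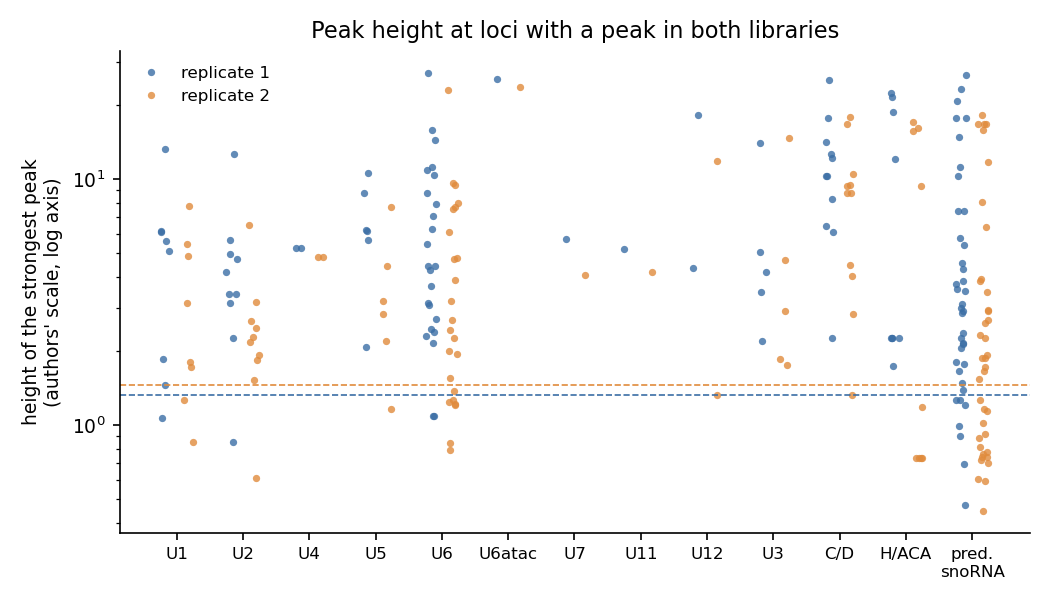
Height of the strongest peak in the window (y axis, authors' scale, log axis) at loci with a peak in both libraries, by family, with 1 point per locus and library; dashed lines mark the median of all peaks of each library (1.33 and 1.46). Most snRNA, U3 and C/D points lie above the lines, and many predicted snoRNA points in replicate 2 lie below.

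The snoRNA genes named above for promoters of their own had peaks in both libraries. The 4 U3 genes Rnu3b1 to Rnu3b4, each annotated as 2 entries, lie on chromosome 11 within the span of Tex14 and had a peak in both libraries. Rnu3b3 was the highest at 14.0 and 14.7, followed by Rnu3b4 at 5.05 and 4.71, Rnu3b1 at 3.48 and 2.92 and Rnu3b2 at 2.19 and 1.76, an order kept in both libraries. Of their windows, between 27.5% and 54.2% of 36-mers are single-copy. Rnu3a on chromosome 10 had 4.19 and 1.86. Snord118 (U8) had 8.27 and 4.49, and Snord13 (U13), near the start of Tti2, had 12.7 and 9.41.

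Peaks of the snRNA families and of these snoRNA genes lay most often upstream of the start. Positions are counted along the gene's strand from its 5′ end and are negative before it. Over the 67 loci of the U1, U2, U4, U5, U6, U7, U11, U12, U6atac and U3 families, Snord118 and Snord13 with a peak in both libraries, the middle of the strongest peak was at a median of -257 in each library. It fell 350 to 200 bp before the gene at 41 loci (61.2%) in replicate 1 and 38 (56.7%) in replicate 2. Of the other 62 members with a peak in both, 9 (14.5%) and 8 (12.9%) had it there. The crowding was densest outside U6, with 25 of 33 far loci in replicate 1 and 22 of 33 in replicate 2, against 6 and 5 of 15 far U6 loci. At least 2 peaks lay in the window at 35 of the 67 loci in replicate 1 and 27 in replicate 2, and a peak had its middle in the first 400 bp after the start at 37 and 30. With the peak nearest the 5′ end in place of the strongest, the share 350 to 200 bp upstream was 31.3% as the mean of the libraries, against 59% for the strongest.

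Few of these loci were covered by a peak directly before the gene. At the 67 loci, 70.15% were covered by a peak at position -250 in replicate 1 and 65.67% in replicate 2, but 13.43% and 4.48% at position -60, where the PSE lies. At position 50, inside the gene, coverage rose again to 26.87% and 25.37%. It reached 34.33% at position 150 in replicate 1 and 31.34% at position 180 in replicate 2, past the end of the shorter genes. Footprints had the same form. Of 354 footprints in replicate 1, 181 had their middle 350 to 150 bp before the gene, 13 in the last 150 bp before it and 40 in the first 150 bp after the start. In replicate 2 the counts were 149, 6 and 38 of 299. Few footprints lay there also at the 51 loci where at least 90% of 36-mers in those 150 bp are single-copy, with 13 of 273 in replicate 1 and 6 of 231 in replicate 2. At the other 62 members coverage at -60 was 12.9% and 11.29%, next to 20.97% and 19.35% at -250, without the tall upstream maximum.

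**Figure D4:**
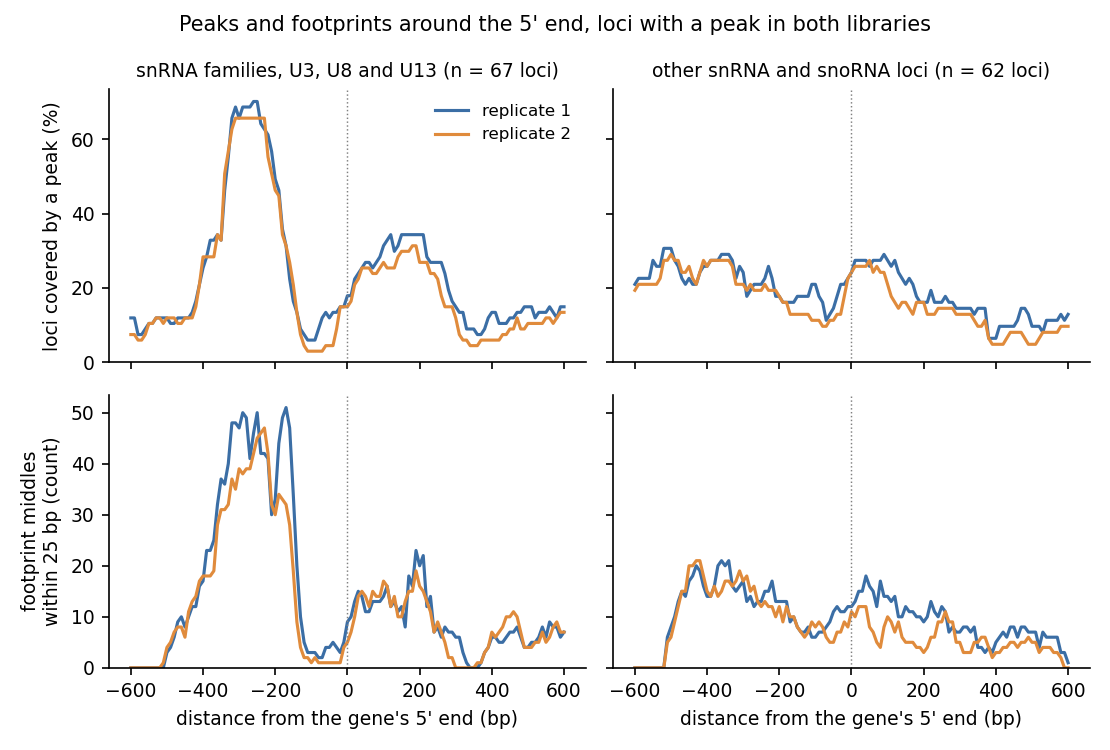
Percentage of loci covered by a peak (upper panels) and number of footprint middles within 25 bp (lower panels) against distance from the 5′ end, for 67 loci of snRNA families, U3, U8 and U13 (left) and the other 62 loci (right) with a peak in both libraries. The left panels rise 350 to 200 bp upstream, fall to a minimum in the 150 bp before the start and rise again after the start. Footprints are counted only within the window, which ends 500 bp upstream.

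At loci of these families with a peak in both libraries, an octamer, where present, mostly lay inside a peak. At 25 loci of these families with a peak in both libraries and an octamer, its first base stood between -250 and -179, at a median of -227. It was inside a peak at 22 loci in replicate 1 and 21 in replicate 2, and a footprint overlapped it at 18 (72%) and 17 (68%). How often footprints overlapped other stretches of the same peaks was not tested. The PSE letters, found at 18 such loci with a median position of -59, were inside a peak at 5 loci in replicate 1 and 0 in replicate 2. No footprint overlapped them in either library.

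Octamer letters were more frequent before far snRNA genes with a peak in both libraries than before those with none. Of the 42 far snRNA loci with a peak in both libraries, 15 (35.7%) held the octamer on either strand in the 300 bp before the gene, against 35 of 1112 (3.15%) without a peak and 2.57% of all 300 bp windows of the autosomes. Among U6 loci, 3 of 15 (20%) with a peak in both held it, against 20 of 743 (2.69%) without. In the other far snRNA loci it was 12 of 27 (44.4%) against 15 of 369 (4.07%). The loci with octamer and peak include several copies of 1 family, the U2 genes Gm25360, Gm23472, Gm24497, Gm25939, Gm23444, Gm24950 and Rnu2-10. The PSE letters were held by 11 of 42 (26.2%), against 31 of 1112 (2.79%) and 2.52% of windows with the letters at the same place. The PSE letters were chosen after values were seen, so their counts, alone or paired with the octamer, are a description and no independent support. Taken as a pair, octamer and PSE letters occurred at 11 far snRNA loci, of which 9 had a peak in both libraries, Gm23971 in replicate 1 alone and the U12 copy Gm25703 in neither. Octamer alone was present at 40 loci, of which 6 had a peak in both, and PSE letters alone at 32, of which 2 had one. All 5 near snRNA loci with the pair, Gm24871, Rnu7, Gm25313, Gm24019 and Gm22068, also had a peak in both, whereas 3 snoRNA loci with the pair, Gm23315, Gm23903 and Gm25183, had none. The 9 far loci were Rnu11, Gm24407, Gm25064, Rnu5g, Gm23444, Gm24950, Rnu2-10, Gm24859 and Gm23296. A further 25 far loci with a peak in both held neither set of letters.

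TATA letters were counted over all far snRNA loci and then apart for U6 and the other families. They stood 40 to 15 bp before 11 of 42 far snRNA loci with a peak in both (26.2%) and before 276 of 1112 without (24.8%), next to 15.6% of windows. Among U6 loci the counts were 8 of 15 (53.3%) and 189 of 743 (25.4%), and among the other far snRNA loci 3 of 27 (11.1%) and 87 of 369 (23.6%). Anywhere in the 100 bp before the gene, they were held by 45.2% of loci with a peak in both and 69.6% of those without. All 3 far U6 loci with octamer, PSE and TATA letters, Gm25064, Gm23296 and Gm24859, had a peak in both libraries, and in each the TATA letters begin at -29. The lowest accessible loci with TATA letters were Gm23502, Gm25709 and Gm22838, the last at 1.47 and 0.52. A match of letters is a description of the sequence and was not tested as a binding site.

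**Figure D5:**
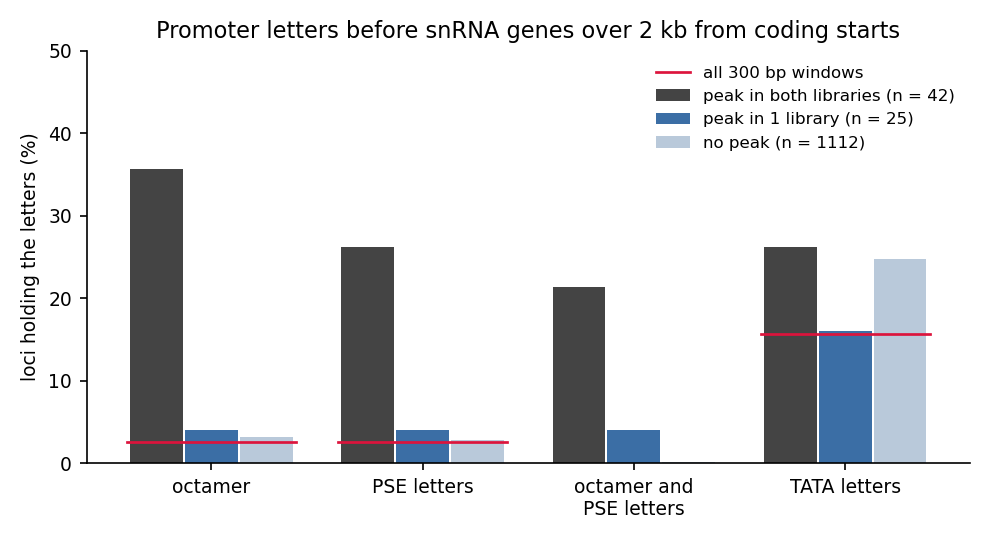
Percentage of far snRNA loci (y axis) that hold the octamer, the PSE letters, both, or TATA letters, for 42 loci with a peak in both libraries, 25 with a peak in 1 and 1112 with none; red lines give all 300 bp windows of the autosomes where counted. Octamer and PSE letters are more frequent at loci with a peak in both, and the pooled TATA shares, 40 to 15 bp before the gene, are 26.2% and 24.8% at loci with a peak in both and with none.

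Accessible snoRNA loci were compared with the starts of their host genes. Of 1442 snoRNA loci, 650 lay within 1 of 294 host genes on the same strand and 792 in none. Where the host's start had a peak in both libraries, 44 of 356 snoRNA loci had one too, and where it had not, 2 of 294 did. Both kinds of window reach 500 bp, so the same peak can count for a snoRNA and for a nearby start of its host. How much of the difference comes from such shared peaks was not tested. The 44 include the 8 U3 entries, without which they are 36 of 348. Of the 294, 208 lie in Snhg14, where a median of 10.7% of 36-mers are single-copy, and without it the count is 2 of 86. Where a host had an accessible start, distance was counted from the host's nearest annotated start, which need not be the accessible one. By that distance the share was 23 of 131 (17.6%) within 500 bp and 3 of 38 (7.89%) from 500 to 1000 bp. It was 5 of 47 (10.6%) from 1000 to 2000 bp and 1 of 39 (2.56%) from 2000 to 5000 bp. Beyond that it was 12 of 101 (11.9%), and 4 of 93 (4.3%) without the U3 genes, so there was no steady fall. These loci mix both distance classes, whose background was 2.17% and 14.8%. Noncoding hosts held some of the tallest far peaks. Snora24, an H/ACA snoRNA in Snhg8, had 22.3 and 17.1, and Snora26 in Dancr had 18.8 and 15.7, with the middle of the peak at -424 and -579 in replicate 1. Snord104 and the neighbouring Gm22711, itself annotated as 2 entries, share a peak of 17.7 and 16.7. Snord49b in 2410006H16Rik had 12.2 and 9.46, and Snord1a and Snord1b share a peak of 10.3 and 8.79. The heights at Snora24, Snora26 and Snord49b equal those of the start peaks of their hosts in both libraries. To which gene these peaks belong was not tested.

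Of named snoRNAs far from protein-coding starts, 7 of 20 H/ACA and 6 of 49 C/D loci had a peak in both libraries. The 7 H/ACA entries include 4 in Snhg12, Snora16a (2 entries), Snora44 and Snora61, which share 1 peak of 2.25 and 0.733. Loci without a snoRNA symbol, called predicted here, had a peak in both at 23 of 1137 (2.02%), near the background of 2.17%. This class is mixed, since RefSeq names many of its loci as snoRNAs, among them SNORA17 and SNORD116 loci. Hosts with many snoRNAs differed in how many were accessible. In Tex14 all 8, the U3 entries, had a peak in both libraries, and in Snhg12 4 of 5. Gas5, a noncoding host, holds 10 snoRNAs and had a start peak of 20.8 and 15.8. Of its snoRNAs 2 had a peak in both libraries, Gm26224 beside that start and Gm22489 at 0.696 and 0.601. In Snhg1, 1 of 8 snoRNAs had a peak in both, and in Taf1d, a protein-coding host, 0 of 8, although their starts had peaks of 14.9 and 11.7, and 13.9 and 8.95. Snora73a and Snora73b (U17) in Rcc1, Rnu73b in Rps3a1, and the Cajal body RNAs Scarna9 and Scarna10 had no peak. For Snora73a the lowest false discovery rate in the window was 9.58e-06 in replicate 1 and 1.35e-05 in replicate 2.

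Peaks were nearly absent from the imprinted snoRNA arrays, whose loci all lay more than 2 kb from protein-coding starts. At that distance 4.5% of consecutive windows had a peak in replicate 1 and 2.26% in replicate 2. SNORD115 had a peak at 0 of 131 loci, SNORD113 at 0 of 11, and SNORD116 at 0 of 69 in replicate 1 and 1 of 69 in replicate 2. That locus is Gm25210, with a height of 0.601 and 9.07% single-copy 36-mers. Footprints lay at 2 SNORD116 loci in replicate 2. The hosts Snhg14, with 208 snoRNAs, and Rian, with 12, had no peak at their annotated starts. The arrays differ in what reads can show. The median single-copy share was 11.1% for SNORD115 and 9.25% for SNORD116, but 100% for SNORD113, where the missing peaks are not limited by repeated sequence. Next to the background, however, 0 of 11 loci does not set SNORD113 apart from other windows.

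Some copies of 1 large predicted family had a peak inside the gene. RefSeq names 425 loci as SNORA17, an H/ACA family, of which 34 (8%) had a peak in replicate 1 and 11 (2.59%) in both libraries. The background was 4.5% and 2.17%, so the share in both libraries was near it. In replicate 1 the middle of the strongest peak lay within the gene at 24 of the 34, at a median of 58, against 12 of 115 other far loci with a peak in that library. Heights at the 11 shared loci had a median of 1.39 and 0.744, ranging from 0.473 and 0.448 to 4.32 and 2.91. Snora17 itself had 1.74 and 1.18. At these 11 shared loci the strongest peak lay within the gene at 4 in replicate 1 and 4 in replicate 2. Most of the 24 peaks within the gene were thus at loci called in replicate 1 alone.

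At loci near protein-coding starts, the strongest peak often lay by such a start, and to which gene it belongs was not tested. The strongest peak came within 200 bp of a protein-coding start at 10 of 17 near snRNA and 18 of 26 near snoRNA loci in each library. The highest snRNA loci there were the U6 copy Gm26243, at 27.1 and 23.0 with an octamer at -250, then Rnu12, the U6 copies Gm25343 (15.8 and 9.61) and Gm24019 (14.4 and 9.43), and Gm22710 (14.6 and 7.97). The highest snoRNA loci were Gm24000 (23.2 and 18.3), Snord60 (25.2 and 17.9), Gm23969 in Rpl7a (26.6 and 16.8), Snora78 (21.5 and 16.1) and Gm26224 (20.8 and 15.8). The start peaks of the hosts Rab26os, Rpl7a, Snhg9 and Gas5 had the same heights as Snord60, Gm23969, Snora78 and Gm26224, in that order. At the 2 kb limit itself, Gm25899 at 1989 bp had a peak in replicate 1 (0.742), while Gm24949 at 1993 bp, Gm24888 at 2010 bp and Rnu73b at 2014 bp had none.

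Away from protein-coding starts, 63 loci had a peak in replicate 1 alone, with a median height of 0.668 and a range of 0.288 to 2.46. The highest, all above the median of 1.33 over all peaks of that library, were Gm25128, a SNORD83 copy in Ddx39b (2.46), Gm24334, a SNORA17 copy (1.96), and Gm23971 (1.63). In replicate 2 their windows had lowest false discovery rates of 0.00117, 0.00604 and 0.00177. All 3 therefore had some signal in the library that lacked the peak.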

How the data were processed

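The 2 libraries form 1 group; the labels call them biological replicates, and their donor entry is identical. Per the file headers and the labels, the authors made peaks, footprints and a false discovery rate per interval from a filtered mm10 alignment of each library; the tools are not stated. The deposited peak files hold a signal (peak height, scale unstated), of which the set with fewer rows was used. The deposited false discovery rates are q-values below 0.05. The deposited footprint score is 0.01 in every row and was not used. Overlaps of at least 1 base (footprints wholly inside) were counted with numpy 2.4.6 and pysam 0.24.0, tested on simulated data. Families came from blastn 2.17.0 alignment to named genes over 80% of the shorter length (984 loci), and then from RefSeq product names (111 loci, a step added after the data were seen); 768 of 768 loci with both had the same family. U6 was also given to 32 loci by the letters ACAGAGA alone. Hosts are genes on the same strand that hold the whole snoRNA, with 500 bp around their starts. Single-copy shares count 36-mers that occur once in the genome sequence. The members and lists were chosen with earlier results of these data known, and no test was made, since there is 1 group. Loci named are the 10 highest far loci, the 5 highest near loci of each type, the named snRNA, U3, U8, U13 and U17 genes and arrays, the 3 highest seen in 1 library, far snRNA loci with and without TATA letters, and the 6 hosts with most snoRNAs. Others, and the PSE letters, were chosen after values were seen. Alternatives covered windows, distances, peak sets, overlap rules, letters, hosts and each library left out. A further marker gene of the tissue check is not reported here.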

Additional observations from a re-analysis of the deposited data

How the results depend on the processing

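Of 96 alternatives over 19 values, 64 moved the value by less than the spread between the libraries. For letters the limit was the 95% binomial interval, which treats loci as independent, although they are not replicates. Shares with a peak in both libraries moved with the window, the distance limit and the library left out. With no flank it was 1.1% for far and 5.31% for near snRNA loci and 3.65% for near snoRNA loci; with 200 bp it was 9.73% and 5.48% for near snRNA and snoRNA loci; with 1000 bp it was 5.51% for far snRNA, 28.3% for near snRNA and 22.4% for near snoRNA loci. For far snoRNA loci the share was 3.6% as reported and 1.55% with no flank. This fall counted among the 64, since the libraries differ widely there (6.7% and 3.68%). Near snRNA loci reached 24.5% with a limit of 1000 bp to protein-coding starts and 10.6% with 5000 bp. With starts of protein-coding transcripts only, near shares were 19.7% (snRNA) and 17.8% (snoRNA). Using 1 library in place of both, peak shares ranged from 3.56% to 5.68% (far snRNA), 15.9% to 21.2% (near snRNA), 3.68% to 6.7% (far snoRNA) and 11.9% to 18.7% (near snoRNA), and footprint shares from 3.9% to 5.51%, 16.8% to 17.7%, 4.09% to 6.87% and 11% to 16.4% in the same order. The higher value came without replicate 2 each time. Counting footprints that overlap the window by 1 base gave 15.9% for near snRNA loci.

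The share of strongest peaks 350 to 200 bp before the gene, 59% over all snRNA-type loci and 50% over far snRNA loci, was 31.3% and 31% with the peak nearest the 5′ end, and 74.4% and 57.4% without U6. It was 55% over snRNA-type loci with 1 of each set of overlapping windows, and 47.6% to 52.4% (far snRNA) or 56.7% to 61.2% (all) with 1 library. TATA letters anywhere in 100 bp were held by 45.2% of far snRNA loci with a peak in both and 69.6% of those without, so the pooled likeness of the narrower search ended; octamer with PSE letters were held by 21.4%. For protein-coding hosts alone, 89% of snoRNAs had an accessible host start, against 54.8% for all hosts, and 8.72% of those snoRNAs had a peak, against 12.4%. Without Snhg14, an alternative chosen after seeing the data, 2.33% of snoRNAs whose host start lacks a peak had one, against 0.68%. The cause of these shifts was not tested, beyond the smaller or larger windows themselves. With blastn families alone, U2 had 9 of 22 far loci with a peak in both and U6 14 of 690, and no U4 or U6atac locus was placed. The peak files hold no usable summit column, so that alternative was not run. No paired analysis was possible because there is 1 group. Read depth is unknown, so a missing peak in replicate 2 does not show closed chromatin.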
